A study of Rattus norvegicus with 2 samples.

Results

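In the annotation of transcripts assembled from rat femur RNA, 225 of 16678 loci (1.35%) brought 2 or more differently named genes together on 1 strand. A locus here is a group of transcript models that the merging step placed under 1 identifier, written XLOC and a number. A locus was taken as joined when its transcripts carried at least 2 different gene names, after the endings for predicted or mapped genes had been removed and without regard to case. These loci made up 1.83% of the 12308 loci with any gene name. Of the 225 joined loci, 198 held 2 names, 17 held 3, 7 held 4 and 3 held 6, which came to 493 names in all. None of the 493 names occurred in a second locus, and none of the joined loci was on the deposited list of 1507 new genes. That list names genes outside the reference, while joined loci carry reference gene names, so their absence from it says nothing more about them.

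The RNA came from femurs of female wild-type Wistar rats after bilateral ovariectomy (OVX), which removes both ovaries and lowers oestrogen, or after a sham operation (SHAM), which leaves them in place. The labels used here cover 1 OVX and 1 SHAM sample, both given as 16 weeks, and their descriptions also read "Old_2" for OVX and "Young_1" for SHAM. Both groups received the standard diet. The files describe the series as a whole and hold no read counts, coverage or expression values. The sequencing depth is therefore unknown from them, and no value below belongs to OVX or SHAM. The models come from 2 assemblies, and a transcript is recorded in 1 or in both of them, but no source used here ties an assembly to a group. The marker genes of bone could be looked up only as names: 11 of 13 bone and osteocyte genes had a named locus in the annotation, which shows that they were assembled and not how strongly they were expressed.

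Neighbouring genes on 1 strand are usually transcribed separately, each ending at its own polyadenylation site. When transcription runs past that site, or when splicing skips it, a single RNA can hold exons of both genes. Such RNAs are known as read-through or conjoined transcripts. A joined locus can also arise in an annotation without such an RNA, when genes overlap on the genome or when several predicted models cover what is 1 gene. This is background, and none of these origins was tested here.

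The names themselves set a limit on what "2 genes" means in these loci. Of the 493 names, 419 (85%) were numbered models of the form rCG and a number, compared with 4050 of 12074 names (33.5%) in single-name loci. Only 46 names (9.33%) were current RefSeq symbols, compared with 43.8% in single-name loci, and 21 more were older symbols of 1 gene. In 161 loci (71.6%) all names were numbered models, and 10 loci (4.44%) joined 2 or more names of another kind. The label of loci that join named genes therefore holds by the rule, but for most members at least 1 of the genes is known here only by a model number. No gene of the lists for bone and osteocyte, osteoclast, skeletal muscle, marrow neutrophil, erythroid cells, cartilage, small leucine-rich proteoglycans or the RNA network of the study was named in a joined locus. Of the 81 listed genes, 45 had a named locus somewhere in the annotation. Among all names 493 of 12567 (3.92%) were in joined loci, and among current symbols 46 of 5339 (0.862%), so lists of this size say nothing about these gene groups.

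The bases before the downstream gene are shown for 2 pairs of close neighbours, because in the files a joining transcript spans the gap before that gene. In the joined locus XLOC_000133 on chromosome 1 (plus strand, 60173692 to 60179759 in the coordinates of the files), Ube2m ended 14 bp before the start of the gene named RGD1305050. Ube2m encodes a conjugating enzyme for the ubiquitin-like protein NEDD8, and RGD1305050 is an older symbol of Chmp2a, a subunit of the ESCRT-III membrane-remodelling complex. In RefSeq (build GRCr8) 16 bases lie between the end of Ube2m and the Chmp2a start used for the promoter windows, at chr1:82734745-82734760 on the minus strand, although the full RefSeq span of Chmp2a reaches further, into Ube2m. In the line below, capitals mark the 8 bases of a full cAMP response element, which is the same on both strands.
Chmp2a: TGACGTCAgatcgttt

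Gabarap, an ATG8-family protein of autophagosome formation, followed the numbered model rCG_35236 after 127 bp in XLOC_010096 on chromosome 10 (plus strand, 53858610 to 53871358). The nearest RefSeq coding gene before Gabarap is Ctdnep1, a nuclear envelope phosphatase. The 250 bases before the RefSeq start of Gabarap, a fixed window longer than the gap in the files (build GRCr8, chr10:55213215-55213464, plus strand), follow.
Gabarap: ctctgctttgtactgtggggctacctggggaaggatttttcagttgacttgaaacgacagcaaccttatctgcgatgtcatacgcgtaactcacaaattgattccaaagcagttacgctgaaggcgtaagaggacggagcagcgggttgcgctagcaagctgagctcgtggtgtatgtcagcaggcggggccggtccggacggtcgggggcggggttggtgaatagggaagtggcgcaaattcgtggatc

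These genes were chosen after their gaps had been seen, as the bridged neighbours at most 250 bp apart whose downstream gene had a RefSeq promoter window. Brd2 met the same rule with a gap of 2 bp, but RefSeq lets the Brd2 gene begin further upstream than its promoter window, so its window is not shown. The full Chmp2a span also takes in the bases printed for it, which were kept because that window had been cut at Ube2m. The letters TGACGTCA occurred before Chmp2a and in the Brd2 window and not before Gabarap, and 1.59% of the 33469 RefSeq windows of 250 bases held them. The polyadenylation hexamers AATAAA and ATTAAA, searched on both strands, were in neither printed sequence and occurred in 19.5% and 13.4% of all windows. The Chmp2a sequence has only 16 bases, so these shares of 250-base windows are no measure for what it holds or lacks. A match in such a window is a description of the letters and not a binding site.

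Joined loci were larger than single-name loci. They held a median of 5 transcripts (interquartile range 4 to 8, range 2 to 35), compared with 2 (1 to 4) in the 12083 loci with a single name. A locus needs at least 2 transcripts to carry 2 names, so part of this difference follows from the rule. The median span was 33977 bp compared with 14218 bp, and the median exon sequence was 3035 bp compared with 1505 bp. Transcripts from both assemblies were present in 219 of 225 joined loci (97.3%) and in 76.5% of single-name loci. More transcripts give more chances for this, and among loci of 4 to 8 transcripts the shares were 99.1% of 114 joined and 99.6% of 3353 single-name loci. At least 1 transcript was recorded in both assemblies in 142 joined loci (63.1%), compared with 30.4%. Among loci of 4 to 8 transcripts it was 57.9% compared with 24.3%. Of the 1455 transcripts in joined loci 233 (16%) were in both assemblies, compared with 12% in single-name loci. Chromosome 1 held 36 joined loci and chromosome 10 held 30, and the share of named loci that were joined ran from 0.813% on chromosome 16 to 2.84% on chromosome 10. The plus strand held 114 of the 225.

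Every transcript has a class code that says how it relates to the reference model it was compared with. The code = means the same chain of introns, c a model contained in the reference, j at least 1 new splice junction, k a model that contains the reference and extends past it, m and n retained introns, and o another overlap of exons on the same strand. Class k was more frequent in the joined loci, with 82 of 1455 transcripts (5.64%) compared with 0.246% in single-name loci. These 82 were 47.1% of the 174 class k transcripts in all named loci, although joined loci were 1.83% of those loci. Class j made up 33% and class = 19.7% of the transcripts in joined loci, compared with 25.1% and 15.2% in single-name loci. Class c was less frequent, at 35.8% compared with 56.6%.

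**Figure D1:**
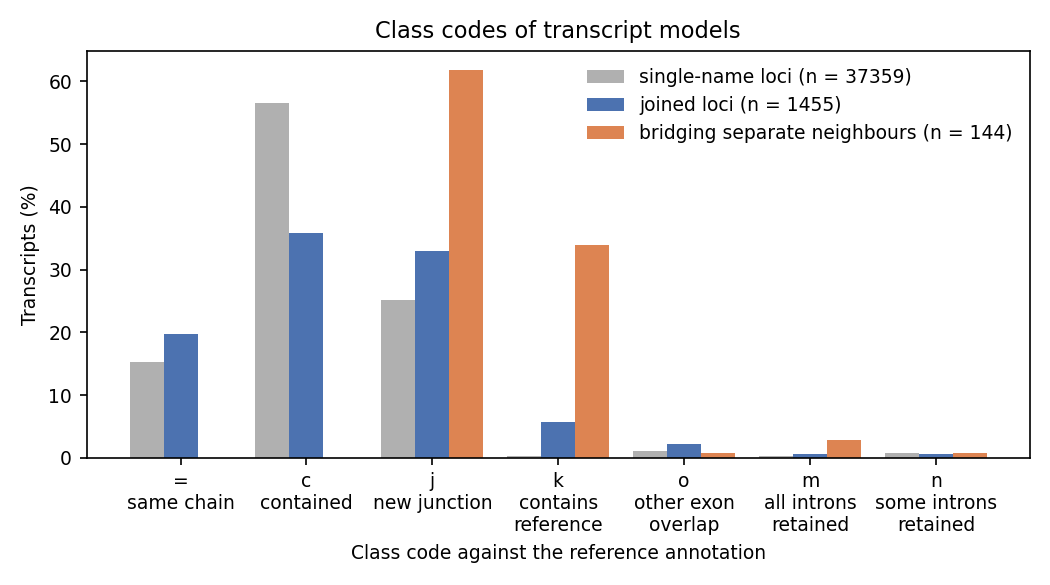
Percentage of transcripts (y axis) with each class code (x axis) in single-name loci (grey, n = 37359), in joined loci (blue, n = 1455) and among transcripts that bridge separate neighbouring genes (orange, n = 144). In the orange bars class j reaches 61.8% and class k 34%, while classes = and c are at 0 because the gene footprints are made from them.

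To tell neighbours from overlapping genes, each name was given a footprint, the union of the exons of its class = and c transcripts, or of all its transcripts where it had neither. Names next to each other in a locus formed 268 pairs. The footprints were separate in 193 pairs (72%), shared exon bases in 70 (26.1%) and overlapped only in their spans, with 1 gene reaching into an intron of the other, in 5 (1.87%). By locus, 152 of 225 (67.6%) held separate footprints only and 69 (30.7%) held an exon overlap. With spans counted, 32.4% of the loci held an overlap, so the share depends on how a footprint is drawn: it fell to 7.56% with class = only and to 16.4% from classes = and c only. In these settings a name without such a model had no footprint, while all 225 loci stayed in the share. Separate pairs fell as well, from 193 to 81 and 167. The lower shares therefore cannot be read as overlapping genes that became separate. A transcript was taken as bridging when it shared exon bases with the footprints of at least 2 names.

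In total, 347 transcripts in 149 loci (66.2%, 95% Wilson interval 59.8 to 72.1, which covers counting error only) bridged 2 or more names. The share of loci was 31.6% with footprints from class = only, 49.3% from classes = and c only and 19.1% where a splice junction had to lead from gene to gene. With the stricter footprints a name without such a model could not be bridged, though its locus stayed among the 225. Among separate pairs with both footprints left, 86.4% of 81 and 57.5% of 167 were bridged, compared with 53.9% of 193 in the main setting. Of the 347 transcripts 162 (46.7%) were class j, 88 class =, 53 class k, 30 class c, 7 class m, 4 class n and 3 class o. Recorded in both assemblies were 72 (20.7%), and 54 of these 72 were of class =. Where footprints share exons, bridging follows from the overlap, and all 70 such pairs had a bridging transcript. In 36 of the 70 (51.4%) both footprints came from class = or c models, compared with 162 of 193 separate pairs (83.9%). In the others a footprint held all transcripts of a name, so a joining model can itself make the overlap. Overlapping and separate pairs are therefore described apart.

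Among the 193 separate pairs, 104 (53.9%, 95% Wilson interval 46.8 to 60.8) had a transcript with exons in both genes. This interval covers counting error only and treats pairs as independent, although a locus of 3 or more names can give several pairs. The remaining 89 pairs were placed in 1 locus without a bridging transcript, and in 15 of them overlapping exons of other models still formed a chain from gene to gene. In 44 of the 193 pairs (22.8%) a splice junction led directly from an exon of one footprint to an exon of the other. The bridging transcripts of separate pairs numbered 144. They were long models, with a median of 10 exons (range 2 to 67) and 2058 bp, compared with 5 exons and 738 bp for class j transcripts and 4 exons and 1076 bp for class k transcripts of single-name loci. Of the 144, 89 (61.8%) were class j, 49 (34%) class k, 4 class m, 1 class n and 1 class o.

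Few of these long models were recorded in both assemblies. It was 10 of the 144 (6.94%), compared with 11.3% of all 43391 transcripts. By class, 3 of 89 class j models (3.37%) and 7 of 49 class k models (14.3%) were in both, compared with 5.8% and 21.7% of the class j and k models of single-name loci. The first assembly alone held 78 (54.2%) and the second alone 56 (38.9%), where the whole annotation had 44.5% and 44.2%. Counted by pairs, 13 of 193 were bridged by a transcript recorded in both assemblies, 27 by different transcripts in each, 43 in the first only and 21 in the second only.

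Joined neighbours lay closer together than neighbours in different loci. The gap between separate footprints in 1 locus had a median of 9915 bp (interquartile range 2811 to 24084). It was 5007 bp for the 104 bridged pairs and 16105 bp for the 89 pairs without a bridging transcript. Same-strand neighbours that stayed in different loci, 12247 pairs, lay a median of 95918 bp apart. Of the 14 same-strand neighbours less than 100 bp apart 8 (57.1%) were in 1 locus and all 8 were bridged. The share in 1 locus was 10.6% of 160 pairs from 100 to 1000 bp, 5.18% of 1389 pairs from 1000 to 10000 bp and 1.67% of 4858 pairs from 10000 to 100000 bp. Beyond that distance it was 0.15% of 6013 pairs. These distance classes hold 187 of the 193 separate pairs and 101 of the 104 bridged ones, since in 6 pairs a gene of another locus starts between the joined genes. A gap that is short enough for exons to touch is one way a locus is formed, so the relation to distance partly reflects how loci are built.

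**Figure D2:**
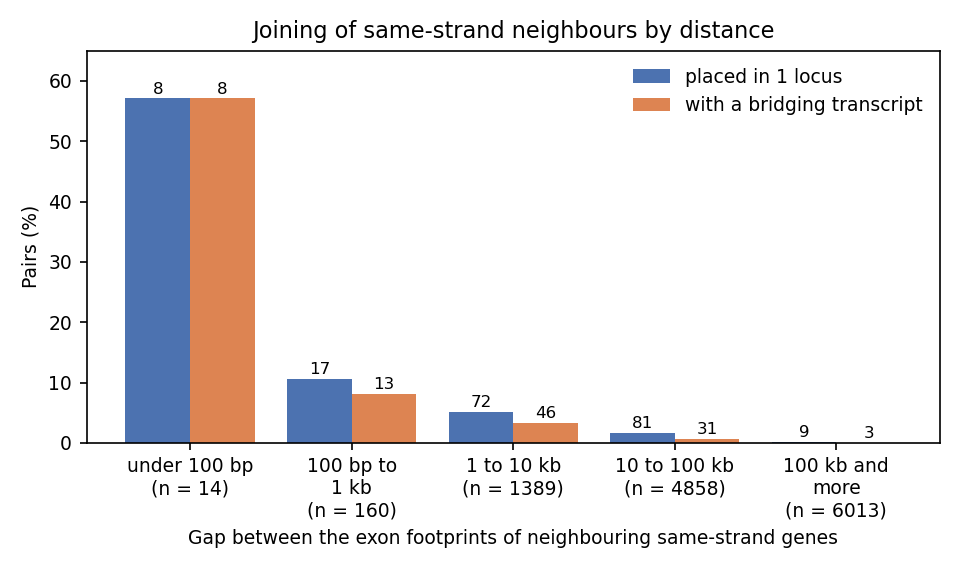
Percentage of same-strand neighbouring gene pairs (y axis) that were placed in 1 locus (blue) or had a bridging transcript (orange), by the gap between their exon footprints (x axis); numbers above the bars are pairs and n is all neighbouring pairs in the bin, without the 6 joined pairs that have a gene of another locus between them. The share in 1 locus goes from 57.1% of 14 pairs under 100 bp to 0.15% of 6013 pairs at the largest gaps.

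**Figure D3:**
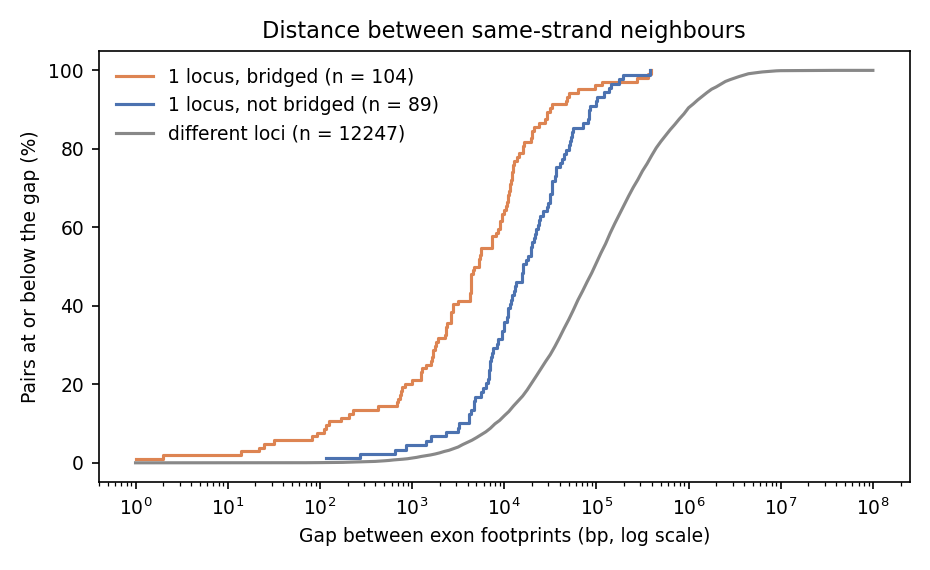
Cumulative percentage of pairs (y axis) against the gap between exon footprints in bp (x axis, log scale) for bridged pairs in 1 locus (orange, n = 104), pairs in 1 locus without a bridging transcript (blue, n = 89) and same-strand neighbours in different loci (grey, n = 12247). The medians are 5007, 16105 and 95918 bp.

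The name that a bridging transcript carries was not fixed to either side. Among the 104 bridged separate pairs, the bridging models were named for the downstream gene alone in 48, for the upstream gene alone in 31 and for both in 4. In the other 21 at least 1 bridging model carried the name of a further gene of the same locus.

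The 10 transcripts that bridged separate genes in both assemblies lay in 10 loci. The longest was a class j model of 52 exons and 7457 bp in XLOC_012528 on chromosome 13 (plus strand, 85806343 to 85881981), which crossed a gap of 16177 bp between rCG_64279 and rCG_20086. A class k model of 37 exons in XLOC_010897 on chromosome 10 (minus strand, 62081662 to 62118503) had exons in 3 numbered genes, with gaps of 2766 and 1622 bp. That locus lies between Nek8 and Spag5, an interval that holds 8 coding genes in RefSeq. XLOC_006326 on chromosome 5, between Fblim1 and Casp9, held a class k model of 10 exons in 3 numbered genes, with gaps of 20118 and 5459 bp. XLOC_005954, also on chromosome 5, held one of 9 exons in 3 numbered genes, with gaps of 2340 and 8638 bp. In XLOC_008165 on chromosome 7 a class k model of 7 exons crossed 1409 bp.

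Among these 10 a symbol occurred once. Kcna3, a voltage-gated potassium channel, shared XLOC_002517 on chromosome 2 with rCG_28831, which lay 9398 bp away. A class k model of 2 exons and 5767 bp joined them by a splice junction. Shorter class k models were seen in XLOC_008670 (5 exons, gap 1686 bp) and XLOC_012122 (4 exons, gap 713 bp). The remaining class j models had 3 exons in XLOC_001581 (gap 4397 bp) and 5 exons in XLOC_004446 (gap 47403 bp). Of these 10 loci, XLOC_001581, XLOC_002517, XLOC_004446, XLOC_008165 and XLOC_008670 were chosen after their values were seen.

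The 27 loci with 3 or more names held a median of 9 transcripts (range 3 to 35), and all 27 had a bridging transcript, compared with 122 of 198 loci with 2 names (61.6%). The more names a locus has, the more pairs can be bridged. In 23 of the 27 all names were numbered models, in 20 all footprints were separate, and in 9 a bridging transcript was recorded in both assemblies. A single transcript touched at least 3 names in 19 of them and 4 names in 4.

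XLOC_009073 on chromosome 8 (minus strand, 109887400 to 109917701) placed 6 numbered genes in 30302 bp, with gaps of 32, 117, 231, 2397 and 6898 bp. Its 13 transcripts formed 1 chain of overlapping exons. Bridging models were 3 of them, all of class j and each in 1 assembly, with up to 24 exons and exons in 2 or 3 of the genes. None of them had exons on rCG_25179, and the gap of 6898 bp before it was not bridged. The named loci on either side are Nradd and Ccdc12, and RefSeq lists a single coding gene between those, Nbeal2. Nbeal2 encodes a BEACH-domain protein needed for platelet alpha-granules.

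XLOC_004504 on chromosome 4 (plus strand, 53142114 to 53169817) held 4 numbered genes with separate footprints. A single class k model of 47 exons, in 1 assembly, had exons in all 4. The locus lies between Impdh1 and Atp6v1f, where RefSeq has 7 coding genes, among them Flnc, the muscle actin cross-linker filamin C. Which of the 7 the 4 models stand for was not settled here.

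**Figure D4:**
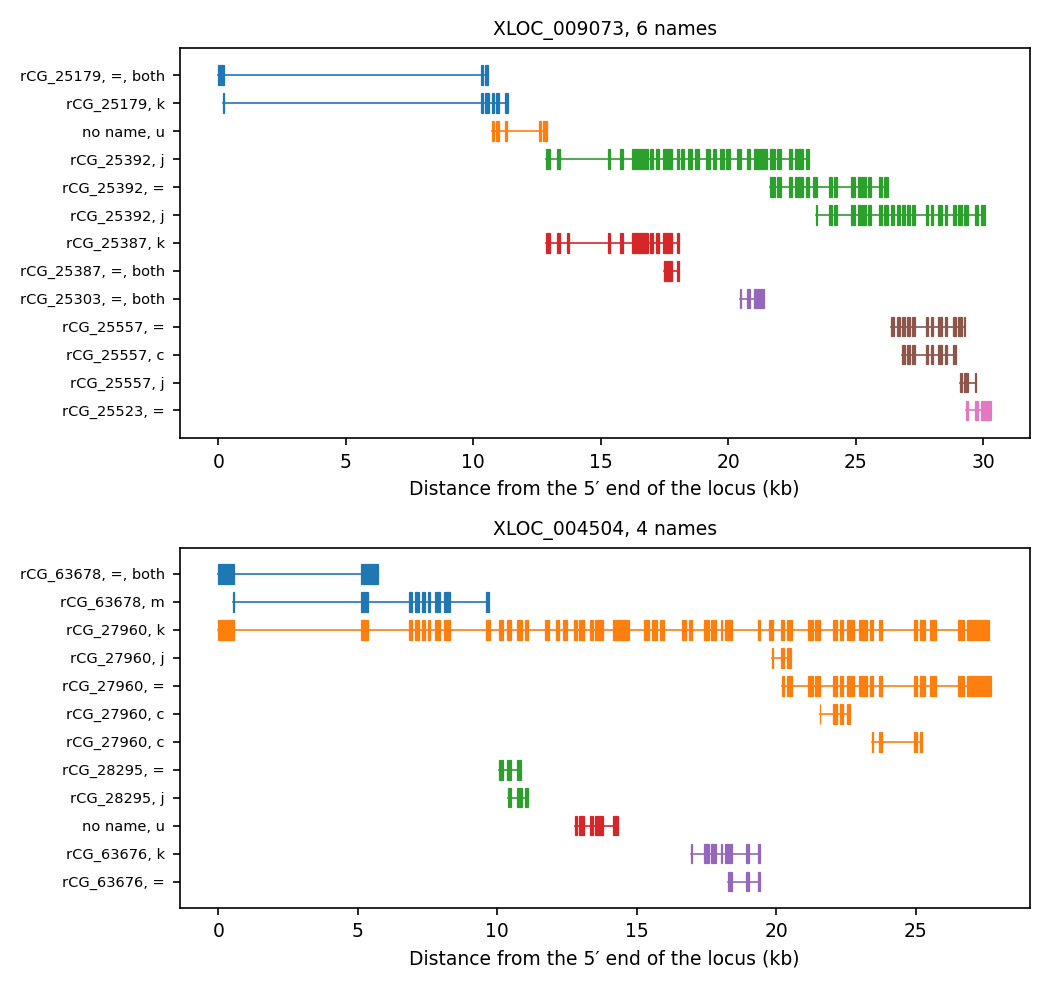
Transcript models (rows; boxes are exons, lines introns) of 2 loci with separate gene footprints, drawn by distance from the 5′ end of the locus in kb (x axis). Row labels give the name carried, the class code and "both" where the model was in both assemblies, and colours mark the name. In XLOC_009073 models of class j overlap several of the 6 named genes, and in XLOC_004504 the class k model of 47 exons covers all 4.

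XLOC_010060 on chromosome 10 (plus strand, 50954973 to 51247361) had 35 transcripts, the most of any joined locus, and held 6 numbered genes. All 19 bridging transcripts were class j and none was in both assemblies. The longest had 41 exons, and a single model touched up to 4 names. The pair rCG_32962 and rCG_33626 shared 5472 bp of exon sequence, 89.3% of the shorter footprint. The locus lies between Sco1 and Dhrs7c, where RefSeq lists 10 coding genes, with the skeletal muscle myosin heavy chain genes Myh3, Myh2, Myh1, Myh4, Myh8 and Myh13 among them. Myosin heavy chains are the motor proteins of muscle fibres and a family of similar sequences. No model of the locus was matched to a gene of the interval, and sharing of reads between similar copies was not tested.

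The third locus with 6 names, XLOC_007135 on chromosome 6 (minus strand, 129897785 to 130053751), had 14 transcripts, 10 of them bridging and 3 of these in both assemblies. The longest bridging model had 7 exons. The next named loci are Mta1 and Adam6.

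The 7 loci with 4 names included 2 in which a class j model touched all 4. XLOC_012062 on chromosome 12 (minus strand, 9218771 to 9335731) lies between Flt1 and Flt3, which encode receptor tyrosine kinases of endothelial and blood progenitor cells. The longest of its 4 bridging models had 16 exons, and RefSeq has a single coding gene in that interval, Pan3, a subunit of a poly(A)-shortening enzyme. XLOC_009685 on chromosome 9, in the interval between Smarcal1 and Cxcr2, had 8 bridging models, up to 32 exons long, and 3 of the 8 were in both assemblies.

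In XLOC_012139 on chromosome 12 the acetylcholinesterase gene Ache overlapped the single-exon model rCG_21219 by 521 bp. Its other 2 names, rCG_21599 and rCG_21101, lay 1 bp apart, the smallest gap of all separate pairs. XLOC_012245, also on chromosome 12, had 21 transcripts and a bridging model of 36 exons. In XLOC_015920 on chromosome 20 a class k model had 19 exons. XLOC_013525 on chromosome 15, between Cma1 and Ctsg, lies in an interval of 16 RefSeq coding genes that includes mast cell proteases, and its longest bridging model had 6 exons.

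Most of the 17 loci with 3 names had models of the same kind. The one with the most exons in any bridging transcript was XLOC_010726 on chromosome 10, with a class j model of 67 exons that touched 2 of its 3 names. Besides the loci with models in both assemblies given above, models with exons in all 3 names had 26 exons in XLOC_002812, 16 in XLOC_001830 and XLOC_014914, 15 in XLOC_014777 and 10 in XLOC_007900. In XLOC_002273, XLOC_006625, XLOC_008435, XLOC_012713 and XLOC_014239 no model touched more than 2 names. XLOC_004624 and XLOC_011440 are described below with the largest gaps.

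Only 9 pairs had a RefSeq symbol, current or older, on both sides, and in 7 of the 9 the genes were immediate neighbours in the RefSeq order. The other pairs, Fam53b with Eef1akmt2 and Trmo with Hemgn, were 2 places apart. Just 2 of the 7 separate pairs had a bridging transcript. Ube2m and Chmp2a, 14 bp apart, were bridged by 1 class m model of 10 exons in the first assembly. Trmo, a tRNA methyltransferase, and Hemgn, an erythroid nuclear protein, were 4362 bp apart and bridged by 1 class j model of 5 exons through a junction from gene to gene, also in the first assembly.

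No bridging transcript was found for the other 5 separate pairs of known genes. Their gaps are distances between footprints, which hold only assembled exons and need not reach the ends of the genes. The footprints of Itga1, the alpha 1 subunit of a collagen receptor, and Pelo, a ribosome rescue factor, lay 41912 bp apart in XLOC_002747. Those of Ak1, adenylate kinase, and Eng, the transforming growth factor beta co-receptor endoglin, lay 11446 bp apart in XLOC_003259. For Fam53b and Eef1akmt2 the gap was 20258 bp. Tars3, a threonyl-tRNA synthetase, and Tm2d3 were separated by 7048 bp, and Msl1 and Casc3, an exon junction complex protein, by 3241 bp. These pairs share a locus identifier, and no model of the locus has exons on both footprints.

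The 2 pairs of known genes with overlapping footprints were Slc23a3 with Cnppd1 and Wdr45 with Praf2. Slc23a3 and Wdr45 had no class = or c model, so their footprints came from all their transcripts. Each overlap lay in 1 class j model of that gene, so these pairs can also be read as neighbours crossed by such a model. Slc23a3 and Cnppd1 shared 2980 bp in XLOC_009694 on chromosome 9. A class = model of Cnppd1, of 9 exons and in both assemblies, lay on both footprints. The class j model of Wdr45, an autophagy protein, contained 502 bp of Praf2 exons on chromosome X, 99.8% of the shorter footprint. In none of these 9 pairs were both names alternatives for the same RefSeq gene, and for the other pairs this could not be looked up.

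Numbered models were also set against the RefSeq gene order. For 224 joined loci the nearest single-name loci with a RefSeq symbol on either side bounded an interval, which held a median of 4 RefSeq coding genes (interquartile range 2 to 7). In 35 of the 224 (15.6%) the interval held fewer coding genes than the locus had names, and 30 intervals held exactly 1. With current symbols alone as bounds it was 20 of 220 (9.09%). Among loci with separate footprints only, it was 15 of 79 with a bridging transcript (19%) and 11 of 73 without (15.1%). This count uses gene order in another build and does not place any model inside a RefSeq gene.

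Several joined loci could share such an interval. The loci XLOC_008165, XLOC_008167 and XLOC_008168 on chromosome 7 each held 2 numbered models, and all 3 loci lay between Prkag1 and Rhebl1, where RefSeq has 1 coding gene, Kmt2d, a histone H3 lysine methyltransferase. XLOC_010805 on chromosome 10 held rCG_32597 and rCG_35112, 25 bp apart, in an interval with Cd68 alone, a lysosomal glycoprotein of macrophages and osteoclasts. Both of its bridging models were class k, 1 in each assembly. In XLOC_002655 the pair was Cspg2, an older symbol of the matrix proteoglycan versican (Vcan), and rCG_44615, and Vcan was the only RefSeq coding gene between Hapln1 and Xrcc4. These 5 loci were chosen after their values were seen.

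The numbering of the reference models was also described. Each model also cites the reference transcript it was compared with, and for the 2 names of a pair these transcripts had consecutive numbers in 139 of 193 separate pairs (72%) and in 49 of 70 overlapping pairs (70%). The rCG numbers themselves were consecutive in 14 of 41 overlapping pairs with 2 numbered models (34.1%), but in 7 of 159 separate pairs (4.4%), where they differed by a median of 163. No such share was computed for neighbours in different loci, so these shares cannot be read as a trait of joined pairs.

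In the 70 overlapping pairs the shared exon sequence had a median of 455 bp (range 1 to 5525), which was a median of 79.1% of the shorter footprint. Both footprints came from class = or c models in 36 of the 70. In 50 pairs at least 50% of the shorter footprint was shared. The span of one gene lay within that of the other in 37 pairs. In 27 the shorter gene was a single exon, and in 19 this single exon was a numbered model beside a name of another kind. Along the host, in the direction of transcription and with its span in 3 equal parts, 15 of the 27 single-exon models lay in the last part, 11 in the first and 1 in the middle. A bridging transcript was recorded in both assemblies in 44 of 70 overlapping pairs (62.9%) and in 13 of 193 separate pairs. All 70 overlapping pairs are bridged by definition, while 89 of the separate pairs had no bridging transcript. Bridging transcripts of overlapping pairs also include class = models of either gene, which separate pairs cannot have. The difference therefore does not measure how alike the assemblies are.

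The hosts described next were picked by name after their values were seen and stand for no gene group. Igfbp5, an insulin-like growth factor binding protein abundant in bone, shared 4007 bp with the single-exon model rCG_23721 in XLOC_009684 on chromosome 9 (minus strand, 72041705 to 72058327). This was 94.7% of the shorter footprint. A class k model in both assemblies carried the name rCG_23721 and contained exons of both, and the only Igfbp5 model was class j.

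Grem1, an antagonist of bone morphogenetic proteins, shared 491 bp with rCG_26386, 86.1% of the shorter footprint. Cst3, the protease inhibitor cystatin C, shared 333 bp with rCG_27506 at its 3′ end, and both names had a class = model in both assemblies. Id3, an inhibitor of helix-loop-helix transcription factors, shared 444 bp with rCG_30871 at its 5′ end, and its bridging models were in the second assembly only.

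Mafg, a small Maf protein, shared 1438 bp with rCG_34790, 94.7% of the shorter footprint, and 4 of its 5 bridging models were class =. Rest, a repressor of neuronal genes, shared 904 bp with rCG_56948. Uhrf1, which maintains DNA methylation, had no class = or c model and shared 594 bp with rCG_45062 in XLOC_009498 through class j models. A class j bridging model of Uhrf1 with 17 exons was in both assemblies. At the lower end, Pam and Spg7 each shared a single base with a numbered single-exon model.

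**Figure D5:**
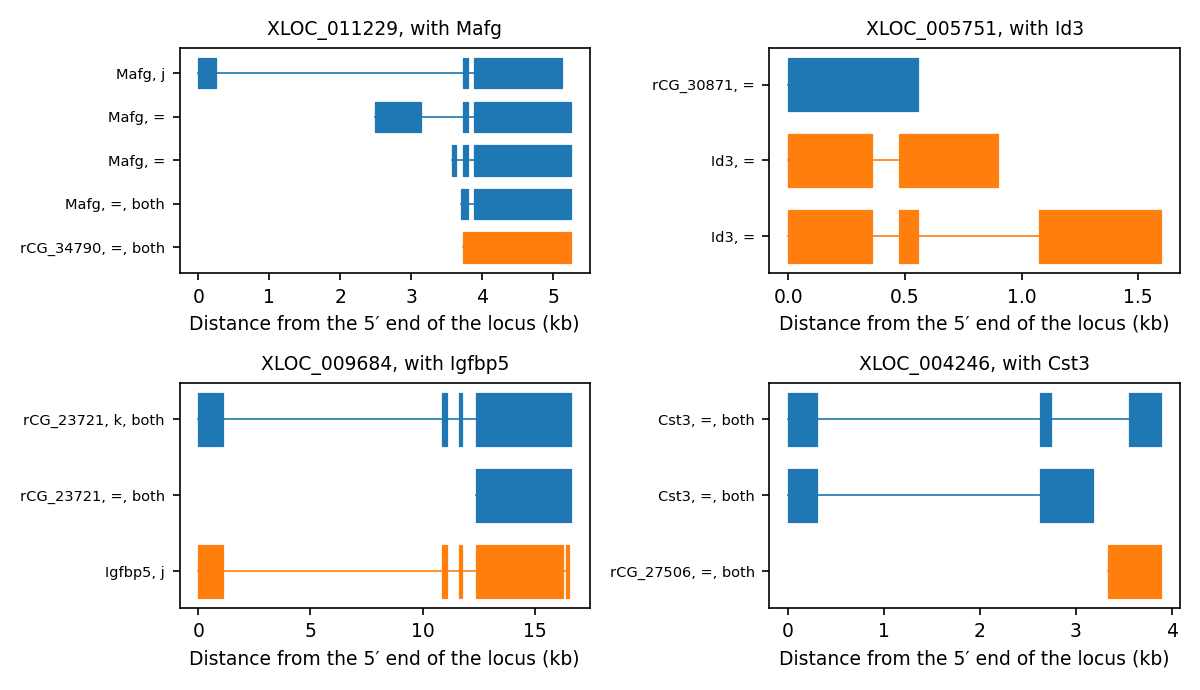
Transcript models (rows; boxes are exons, lines introns) of 4 joined loci in which a single-exon numbered model overlaps Mafg, Id3, Igfbp5 or Cst3, by distance from the 5′ end of the locus in kb (x axis). Row labels give the name, the class code and "both" for models in both assemblies. The numbered exon shares 1438, 444, 4007 and 333 bp with the footprint of the other gene.

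The 5 longest overlaps were led by XLOC_010025 on chromosome 10, where rCG_33907 and rCG_33906 shared 5525 bp, between Rasd1 and Srebf1. After the 5472 bp of XLOC_010060 and the 4007 bp of Igfbp5 came Zfp46, a zinc finger gene, with 3641 bp shared with rCG_30715 in XLOC_005755. The fifth was XLOC_007779 on chromosome 7, with 3569 bp shared by rCG_29158 and rCG_29233. Igfbp5, Zfp46 and both names of the pair in XLOC_010060 had no class = or c model, so these overlaps lie in models of other classes. In all 5 the pair was bridged in both assemblies, in XLOC_010060 by different transcripts and in the other 4 by a shared one.

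The 5 largest gaps were far outside the range of most pairs. In XLOC_004624 on chromosome 4 the numbered models rCG_64255 and rCG_56123 lay 387173 bp apart and were bridged by a class j model of 4 exons in the second assembly. In XLOC_000681 on chromosome 1, between Htra1 and C1h10orf88, a class k model of 4 exons in the second assembly crossed 359768 bp. In XLOC_011440 on chromosome 11 a class k model of 4 exons in the first assembly crossed 277665 bp. The other 2 pairs had no bridging transcript: rCG_46032 and rCG_46052 in XLOC_012724 were 378541 bp apart, and rCG_50095 and Dcamkl1, an older symbol of the microtubule-associated kinase Dclk1, were 196402 bp apart in XLOC_002298.

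The bridging transcripts with the most exons that were recorded in both assemblies included overlapping loci as well. XLOC_004796 on chromosome 4 (plus strand, 147092788 to 147223714) had a class = model of 52 exons and 8809 bp, which lay on rCG_29742 and rCG_29743, and its interval in RefSeq includes Vwf, the von Willebrand factor of platelets and endothelium. XLOC_007014 on chromosome 6, between Zfp36l1 and Dcaf5, had a class j model of 18 exons, and with older symbols as bounds its interval held Actn1, alpha-actinin, alone, while with current symbols alone it held 33 coding genes. XLOC_009685 had a class j model of 14 exons in both assemblies and XLOC_004775, between C1rl and Emg1, one of 11 exons.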

How the data were processed

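The deposited files are a transcript annotation and a table naming genes outside the reference. Their values are positions and attributes (other than counts or levels), which the authors made by StringTie assembly and comparison with a reference annotation. The submitters' processing notes also name FastQC, HISAT2, featureCounts and the build rn4, with versions not given in the sources used here. The rCG names did not settle whether the positions follow that build, so positions are given as the files have them, and chromosomes were assigned from the symbols on each of the 21 sequences (5292 of 5340 on 1 main chromosome, 99.1%). The planned expression comparison was not run, since no file holds counts or levels. Locus membership, footprints, gaps and bridging transcripts were computed in Python 3.11.15 (numpy 2.4.6, scipy 1.17.1, matplotlib 3.10.9), with at least 1 shared exon base as the limit, and the steps were tested on simulated loci. The assembly of a transcript was read from the order of transcript numbers. No test over loci was made, since loci are not replicates. RefSeq (GRCr8) gave symbols, gene order and promoter windows. The members, lists and comparisons were chosen with earlier results of these data known. The loci named are those with 3 or more names, the 10 with the most exons in a bridging transcript of both assemblies, and the 5 pairs each with the largest gap and the longest overlap; others are marked. No listed gene was named in a joined locus, and a listed gene under a numbered model would not be seen. The RefSeq intervals of a few loci are not reported here.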

Additional observations from a re-analysis of the deposited data

How the results depend on the processing

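The number of joined loci was 225 with names as written and with same-strand exon classes only. Merging synonyms also left 225, but only the 9 pairs with RefSeq symbols on both sides could have changed. The number was 173 from classes = and c and 180 from transcripts of 2 or more exons, but 56 from transcripts in both assemblies. The share of joined loci with a bridging transcript was 66.2%. It moved to 31.6% with footprints from class = only and to 19.1% for a splice junction from gene to gene, and with footprints from classes = and c only, an alternative added after seeing the data, to 49.3%. The share with overlapping footprints, 32.4% when spans count, moved to 7.56% and 16.4% with these 2 footprints. With either of them a name without such a model had no footprint, while its locus still counted in both shares. The median gap of 9915 bp moved to 4397 bp with class = only and to 5007 bp for bridged pairs. The share of bridging transcripts in both assemblies, 20.7%, moved to 13.9% with 2 or more exons and to 6.94% for separate pairs (added after seeing the data). The share of class j, 46.7%, moved to 52.3% with 2 or more exons and, in alternatives added after seeing the data, to 37.5% with footprints from classes = and c only and 61.8% for separate pairs. The share of separate pairs that were bridged, 53.9%, moved in added alternatives to 86.4% of 81 pairs with class = only and 22.8% for a junction. Bridging of at least 50 exon bases on each gene left the shares of bridged loci, bridged separate pairs, class j and both assemblies within the 95% interval of the main value. The share of pairs that are RefSeq neighbours was 100% of 3 pairs with current symbols. No paired analysis was possible because neither file has per-sample values and the labels give 1 sample per group, and the expression comparison was not run.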
